A study of Callithrix jacchus with 20 samples.

Results

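Of 25102 marmoset genes with an entry in the count tables, 57 had counts in every day 4 library far above those in the cells that the day 4 cells came from. They were chosen on size-factor normalised counts, the reads of a gene divided by a scaling factor of its library. The lowest of the 8 day 4 values had to be at least 6 times the highest value plus 1 among the 6 libraries of cells kept in cjPSCM or pre-induced from them. The mean of the 8 values had to be at least 50, and the lowest cjPGCLC value had to be under 2.5 times the highest soma value. The last condition removed no gene. Since the day 4 and the earlier cjPSCM values chose the genes, the difference between them is described here and not tested.

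The libraries were polyA RNA-seq of the marmoset (Callithrix jacchus) iPSC line DPZ_cjiPSC2, a single line, in 10 conditions of 2 replicates labelled biological, so p-values measure the spread between cultures of 1 line. The study asked how marmoset primordial germ cell-like cells (cjPGCLCs) can be derived in defined media. cjiPSCs were kept in TESR or in cjPSCM (cjiPSCs_TESR, cjiPSCs_cjPSCM) and pre-induced for 24 h toward pre-ME, the precursor of mesendoderm, with 3 µM CHIR and with or without 100 ng/ml activin A (TESR_pre-ME+ActA, TESR_pre-ME-ActA, cjPSCM_pre-ME+ActA, cjPSCM_pre-ME-ActA). Cells from both cjPSCM pre-inductions were then aggregated for 4 days into embryoid bodies under EGF (50 ng/ml), BMP4 (500 ng/ml), SCF (100 ng/ml) and LIF (10 ng/ml), dissociated and sorted into a double-positive fraction (cjPGCLCs) and a double-negative fraction (soma). Day 4 cells from TESR cultures were not analysed here. Day 4 therefore came with 4 more days of culture, the end of CHIR and of any activin A, and the aggregates. It also came with the 4 added factors, the dissociation and the sort, and all these changes cannot be told apart.

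BMP4 acts through receptors that phosphorylate SMAD1, SMAD5 and SMAD9, which switch on target genes and, among them, the pathway's own inhibitors. In the early primate embryo BMP signalling goes with the formation of amnion, of extraembryonic and lateral plate mesoderm and of primordial germ cells. The HAND, GATA4 to GATA6 and TBX transcription factors named below are known for the mesoderm that forms the heart, body wall and extraembryonic mesenchyme.

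The libraries held 4784964 to 22067099 reads on genes, and the soma libraries were shallow, with 4784964 to 7171565. In units of normalised counts, 3 reads corresponded to 1.40 to 6.92 depending on the library, so values in that range rest on a few reads. Of the markers of the fractions, the surface marker gene CXCR4 was at 1128 to 1317 in the cjPGCLCs and at 49.5 to 76.1 in the soma, and ITGA6, EPCAM and the germ cell genes SOX17, TFAP2C, PRDM1, NANOS3 and DPPA3 were also higher in all 4 cjPGCLC libraries. KIT, another germ cell marker, overlapped, at 817 to 1141 in the cjPGCLCs and 749 to 1309 in the soma. Of the soma markers, HAND1, MIXL1 and HOXB6 (0 to 3.80 in the cjPGCLCs, 1.55 to 10.6 in the soma) overlapped too. HOXD4 was higher in all 4 soma libraries, at 7.74 to 20.8 against 0 to 5.69, though on few reads. The labels and the study's methods name different marker pairs for the sort, drawn from CXCR4, INTα6 and EpCAM. The separation was less clear from the soma side: among 4961 genes with at least 500 in every soma library, the one with the lowest share in cjPGCLCs, RGS5, was still at 176 to 860 there against 2380 to 4004. How much soma RNA the cjPGCLC libraries held was not tested. In bulk samples fewer cells of a type and less RNA per cell cannot be told apart, so a gene present in both fractions is not shown to be present in each of their cells.

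The 57 genes took 0.0187% to 0.0235% of the gene reads in the earlier cjPSCM libraries and 0.595% to 1.04% on day 4. For the median gene the lowest day 4 value was 11.5 times the highest earlier value plus 1, and this smallest ratio ranged from 6.10 to 111. It was over 10 for 34 genes and over 20 for 14. By their known roles, assigned after the values were seen, they comprised 13 transcription factors, 5 genes of BMP signalling, 7 of heart and muscle, 9 of the extracellular matrix, 6 cell surface receptors, 3 other secreted signals and 14 others, 1 of them known only as LOC103796517. The other 56 were all listed as protein coding in RefSeq (calJac240_pri).

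**Figure D1:**
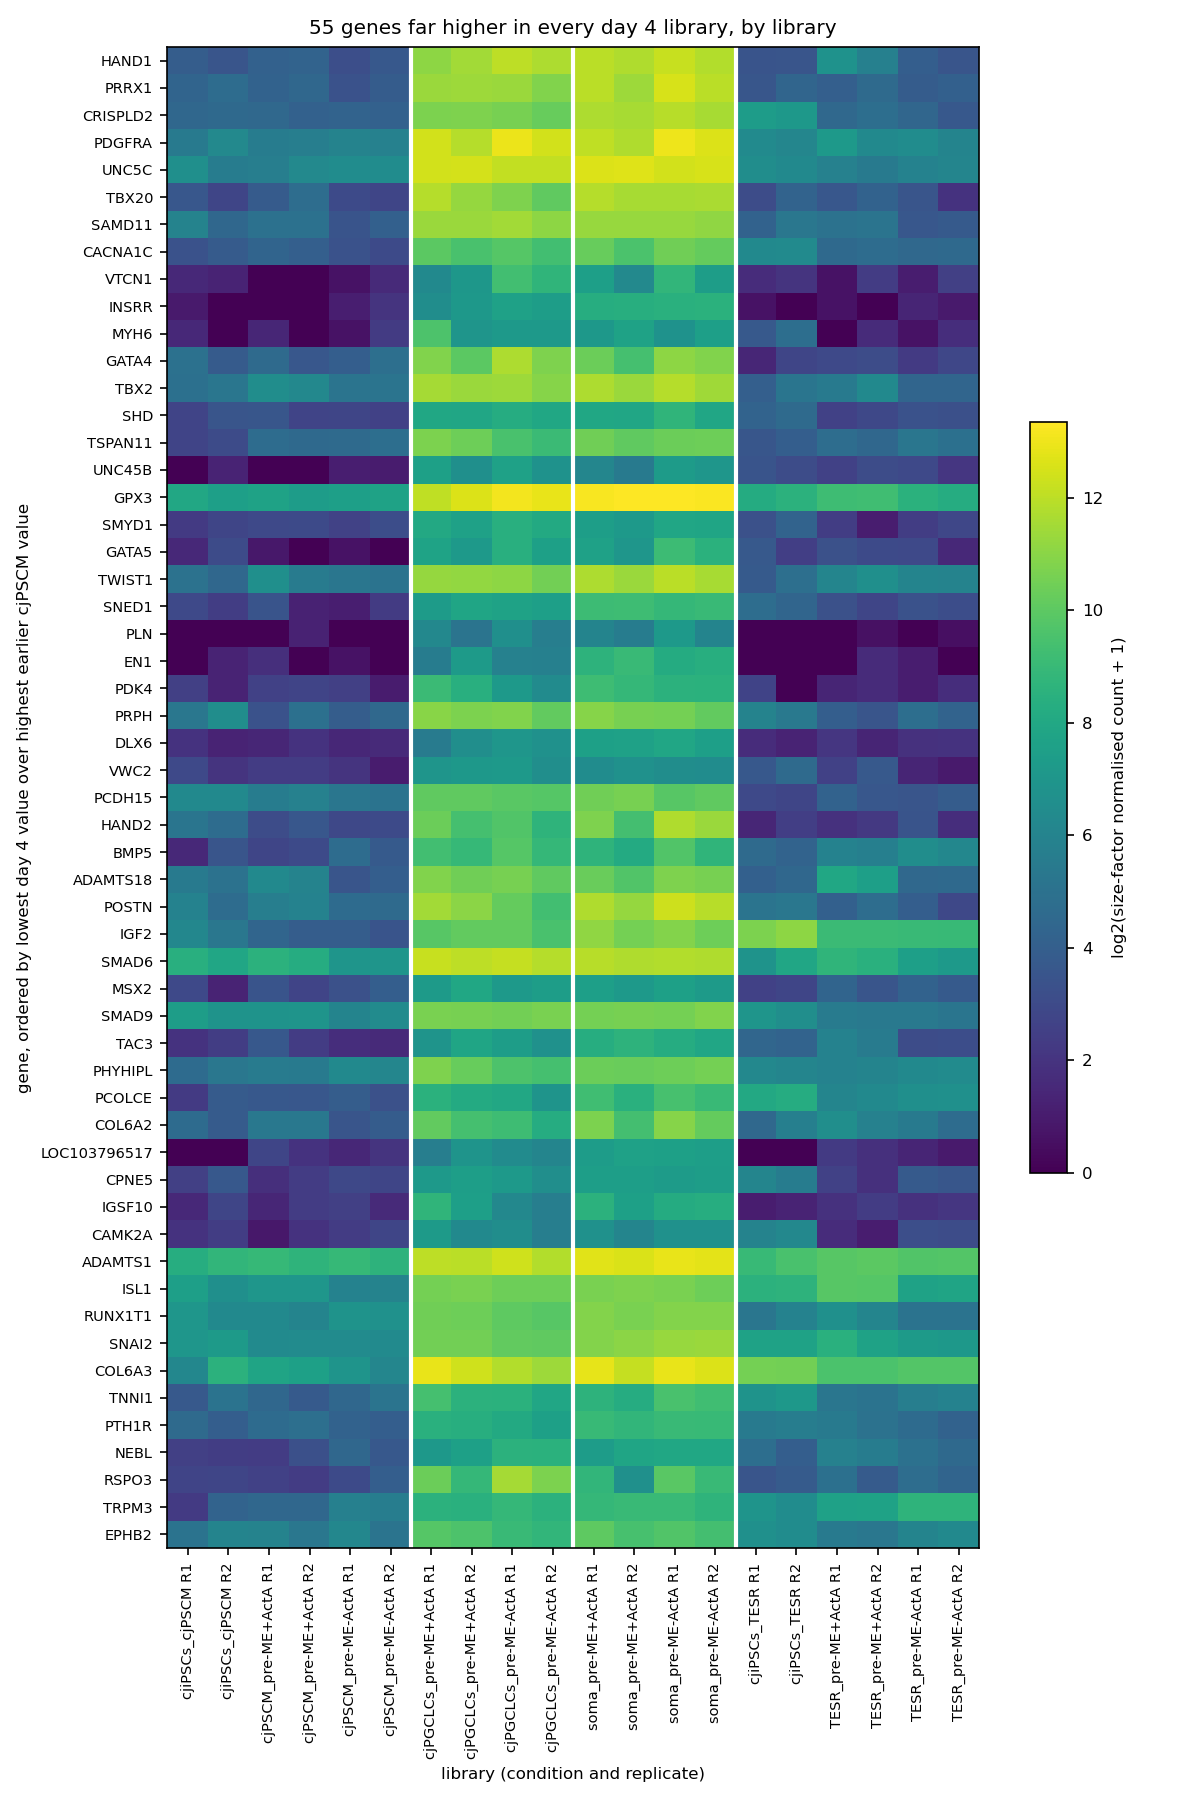
Size-factor normalised counts of those of the 57 genes that are named here, as log2(count + 1), 1 row per gene and 1 column per library. White lines separate, from left to right, 6 earlier cjPSCM libraries, 4 cjPGCLC, 4 soma and 6 TESR libraries; every row brightens at the first line, and rows such as IGF2 and COL6A3 are bright again in TESR.

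The largest ratio belonged to HAND1, a bHLH factor of extraembryonic and lateral mesoderm. Its normalised counts were 14.1 and 10.4 in the cjiPSCs_cjPSCM replicates, 16.7 and 18.3 after pre-induction with ActA and 8.25 and 11.9 without. On day 4 the cjPGCLCs had 2135 and 2858 with ActA and 4155 and 3343 without, and the soma 3934 and 3497 with ActA and 4845 and 3588 without. The lowest day 4 library was thus 111 times the highest earlier one plus 1, and the 2 fractions overlapped. Its relative HAND2 had less distance, with 6.48 to 34.9 in the earlier cjPSCM libraries, 403 to 1299 in the cjPGCLCs and 662 to 3510 in the soma.

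The T-box and GATA members showed the same step. TBX20, a regulator of the heart chambers, had 5.93 to 26.7 before and, on day 4, 3760, 2424, 1710 and 1070 in the cjPGCLCs (replicates 1 and 2 with ActA, then without) and 3646, 3090, 3067 and 3151 in the soma. The soma libraries were close together and the cjPGCLC libraries without ActA were the lowest of the 8. TBX2, a T-box repressor, had 29.2 to 93.5 before and 1965 to 3757 on day 4. GATA4, a zinc finger factor of heart and endoderm, had 11.2 to 30.1 before and 690 to 3322 on day 4, and GATA5 0 to 7.41 before and 130 to 567 on day 4.

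Factors of mesenchyme formed another set. PRRX1, a homeobox gene of mesenchyme with the second largest ratio (67.7), had 9.43 to 25.2 before, 2628, 2663, 2584 and 1773 in the cjPGCLCs and 3968, 2698, 6012 and 4024 in the soma, so that all 4 soma libraries lay above all 4 cjPGCLC libraries. TWIST1, a driver of epithelial-mesenchymal transition, had 20.8 to 97.6 before and 1459 to 3927 on day 4. SNAI2, which represses E-cadherin, started higher, at 82.2 to 153, and reached 1098 to 2564. These 3 genes are known for cells that leave an epithelium. ISL1, a LIM homeobox factor of heart progenitors and amnion, went from 59.5 to 183 before to 1329 to 1747 in the 8 day 4 libraries, a narrow range. MSX2 and DLX6, homeobox genes known as BMP targets, were low before (1.48 to 14.9 and 1.48 to 2.83) and at 142 to 243 and 45.6 to 233 on day 4. EN1, the engrailed homeobox gene, was at 0 to 2.5 before and at 48.2, 155, 57 and 55.2 in the cjPGCLCs against 398, 535, 293 and 328 in the soma.

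**Figure D2:**
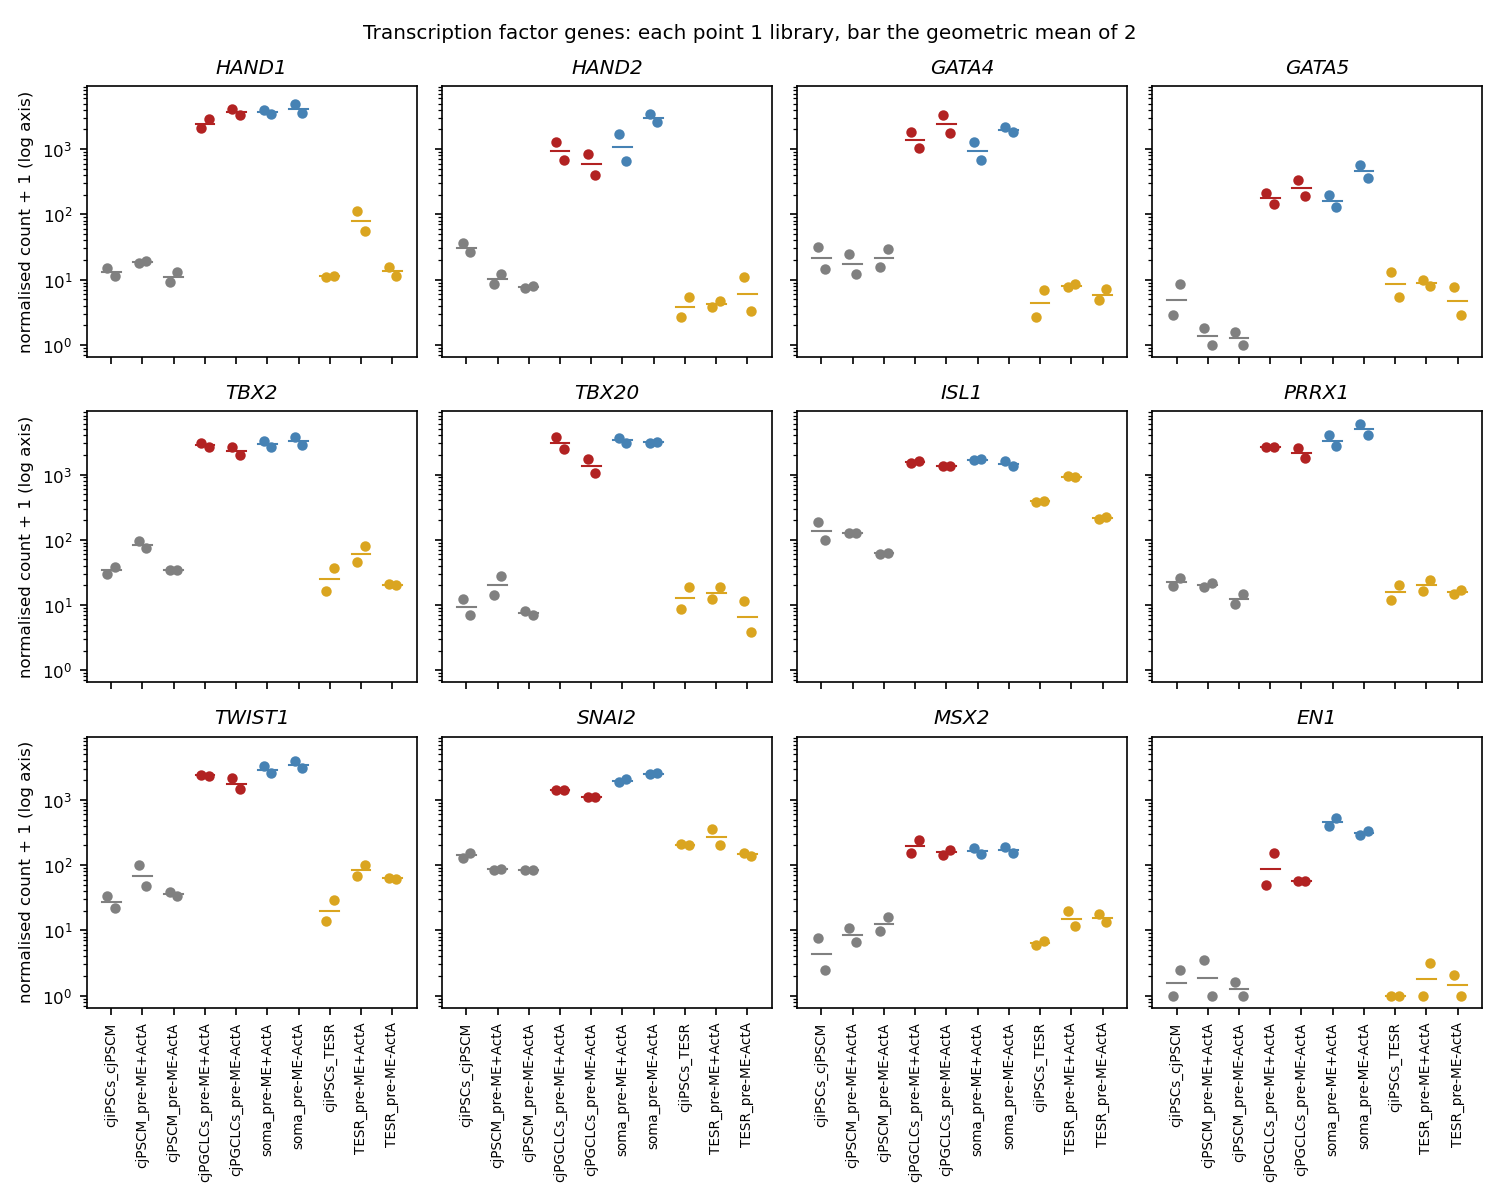
Normalised count + 1 on a log axis for 12 of the 13 transcription factor genes, 1 panel per gene and 1 column per condition; each point is 1 library and each bar the geometric mean of 2. Grey marks earlier cjPSCM cells, red cjPGCLCs, blue soma and yellow TESR cells: red and blue points stand above grey in every panel, ISL1 is also high in TESR cells, and HAND1 is higher in TESR_pre-ME+ActA than in the other TESR conditions.

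Among the BMP genes, SMAD6, an inhibitory SMAD that BMP induces, was already present before, at 344 and 239 in cjiPSCs_cjPSCM, 381 and 305 after pre-induction with ActA and 124 and 125 without. It was at 4786, 4184, 4645 and 3752 in the cjPGCLCs and at 3828, 3506, 3607 and 3470 in the soma. SMAD9, a signal-transducing SMAD of the pathway, was at 63.7 to 170 before and at 1461 to 1776 in the 8 day 4 libraries, with overlapping fractions. The ligand BMP5 was at 1.88 to 25.3 before and at 289 to 915 on day 4. VWC2, a secreted antagonist of the pathway, was at 0.991 to 6.59 and at 88.2 to 141.

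Of the 7 genes of heart and muscle, MYH6, the atrial myosin heavy chain, was at 0 to 3.96 before and at 781, 124, 143 and 143 in the cjPGCLCs and 138, 204, 111 and 187 in the soma. A single library, cjPGCLCs_pre-ME+ActA replicate 1, stood apart from the other 7. Reads of MYH6 may be shared with its close relative MYH7, so its count is uncertain. PLN, the inhibitor of the sarcoplasmic calcium pump, had 0 in 5 of the 6 earlier libraries and 1.40 in the other, and 34.1 to 148 on day 4. UNC45B, a myosin chaperone, was at 0 to 1.48 before and at 44.7 to 197 on day 4, and SMYD1, a muscle methyltransferase, at 3.77 to 7.93 and at 140 to 345. These genes act in the sarcomere or in its calcium supply. CACNA1C, the L-type calcium channel, was at 6.93 to 18.4 before and at 637 to 1414 on day 4. TNNI1, the slow troponin I, was at 12.2 to 34.7 and then at 238 to 724, and NEBL, nebulette, at 4.17 to 20.6 and then at 139 to 377.

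Other genes of cardiomyocytes, in a list drawn up after the values were seen, gave a mixed picture. NKX2-5, a defining heart factor, was at 0 in the 6 earlier libraries and at 1.42 to 11.5 on day 4, and TNNT2, the cardiac troponin T, at 2.96 to 24.2 and at 1.49 to 50.7. The atrial peptide gene NPPA was at 0 to 9.22 on day 4. TTN, titin, was at 61.8 to 208 before and at 892 to 2092 in the cjPGCLCs and 383 to 752 in the soma.

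Counts here are not corrected for gene length, so they are compared between libraries and not between genes. Of the matrix genes, COL6A3, a chain of collagen VI, was at 72.5 and 374 in the cjiPSCs_cjPSCM replicates and at most 224 in the pre-ME, against 7549, 5275, 3632 and 2668 in the cjPGCLCs and 7449, 4675, 7506 and 6383 in the soma. The spread between the earlier replicates was thus wide, and the cjPGCLCs without ActA had the lowest day 4 values. Collagen VI forms a fine meshwork around cells, and a second chain was among the 57. COL6A2 was at 10.6 to 39.3 before and 304 to 1928 on day 4. ADAMTS1, a secreted metalloprotease, was at 312 to 494 before, 3584 to 5242 in the cjPGCLCs and 6209 to 7583 in the soma. POSTN, periostin, was at 23.8 to 60.4 before, at 2929, 2084, 1151 and 634 in the cjPGCLCs and at 3472, 2360, 5189 and 3797 in the soma. POSTN was lower in the cjPGCLCs without ActA than in the other 6 libraries. CRISPLD2, a secreted protein, had the third largest ratio (52.2), with 16.8 to 22.2 before, 1212 to 1708 in the cjPGCLCs and 3046 to 3840 in the soma. The other 4 were ADAMTS18 (10.6 to 80.9 before, 850 to 1771 on day 4), PCOLCE, an enhancer of procollagen processing (3.77 to 14.1, 120 to 715), SNED1 (1.18 to 10, 157 to 580) and IGSF10 (1.67 to 5.93, 50.4 to 425).

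Of the receptors, PDGFRA, the PDGF receptor of mesenchyme, was at 44.3 to 77.1 before. It was at 5562, 3660, 7781 and 5585 in the cjPGCLCs and 4303, 3481, 8217 and 6436 in the soma, without separation of the fractions. UNC5C, a netrin receptor, was at 47.4 to 98.9 before and 4397 to 6646 on day 4. INSRR, the insulin receptor-related receptor, was at 0 to 2.97 before and at 90.4 to 197 in the cjPGCLCs against 313 to 371 in the soma, with no overlap of the fractions. EPHB2, an ephrin receptor, was at 33.0 to 71.3 before and 441 to 1043 on day 4, and PTH1R, the parathyroid hormone receptor, at 14.8 to 28.1 and 194 to 526.

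Genes next to the 57 were found in the RefSeq order (calJac240_pri, used for order only). Of the 110 such genes outside the 57, 0 reached the ratio of 6. Over all 25102 genes with an entry in the count tables, 61 reached it, the 57 included. With so few, a count of 0 among 110 cannot show whether neighbours shared the step. DLX5, a homeobox gene beside DLX6, was at 3.77 to 21.8 before and 108 to 514 on day 4. COL6A1, beside COL6A2, was at 195 to 768 before and 433 to 1900 on day 4, so its earlier and day 4 ranges overlapped where those of COL6A2 did not. KIT, the SCF receptor gene beside PDGFRA, was at 275 to 795 before and 749 to 1309 on day 4.

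The secreted signals were IGF2, RSPO3 and TAC3. IGF2, a growth factor gene of mesoderm and placenta, was at 70.6 and 38.5 in cjiPSCs_cjPSCM and at 9.91 to 19.2 in the pre-ME, and reached 720 to 1125 in the cjPGCLCs and 1338 to 2273 in the soma. RSPO3, which strengthens WNT signals, was at 4.21 to 14.9 before and on day 4 at 1296, 475, 2956 and 1689 in the cjPGCLCs and 436, 101, 959 and 518 in the soma. In both fractions the second replicate with ActA was the lowest, and the fractions overlapped. TAC3, the neurokinin B gene, was at 1.98 to 11.7 before and 107 to 392 on day 4.

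The other 14 genes included GPX3, a secreted glutathione peroxidase with the highest day 4 mean of the 57, at 4272 to 8842 in the cjPGCLCs and 9547 to 10382 in the soma after 166 to 253 before. VTCN1, an immune checkpoint ligand known from amnion and placenta, was at 0 to 1.98 before. On day 4 it was at 80.3, 132, 642 and 426 in the cjPGCLCs and 184, 77.5, 438 and 173 in the soma. PDK4, a kinase that slows pyruvate oxidation, was at 0.991 to 5.62 before and 86.7 to 595 on day 4, and SAMD11 at 10 to 62.2 and 2165 to 2851. PRPH, the intermediate filament peripherin, was at 9.18 to 91.9 and 1115 to 2039. The rest, TSPAN11, PHYHIPL, RUNX1T1, PCDH15, TRPM3, CAMK2A, CPNE5, SHD and LOC103796517, had smallest ratios between 6.38 and 19.9.

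At the threshold of 6, EPHB2 (6.10), TRPM3 (6.38), RSPO3 (6.39) and NEBL (6.45) lay just inside. GDF6 (5.95), HEY1 (5.94) and CSPG4 (5.93) lay just outside. At the threshold of a mean of 50, PLN (72.6), CAMK2A (95.1), VWC2 (109) and UNC45B (125) were the nearest inside, and CPED1 (47.3), TRIM55 (42.9) and WNT1 (29.4) the nearest outside. The lowest cjPGCLC value came nearest the limit of 2.5 times the highest soma value in SMAD6 (0.980), VWC2 (0.893), SAMD11 (0.870) and SMYD1 (0.824).

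Between the day 4 fractions, the genes leaned toward the soma. The soma mean was above the cjPGCLC mean in 42 of 57 genes, and the median ratio of the means was 1.23, beside 1.01 over all genes tested. In 16 genes all 4 soma libraries lay above all 4 cjPGCLC libraries, which was 28.1% of the 57 beside 10.6% of all genes, and in 0 genes were all cjPGCLC libraries higher, beside 12.3% of all genes. The rule set a limit on one side of this difference, so no test is given. The 16 included EN1, SNED1, INSRR, LOC103796517, CRISPLD2, DLX6, TAC3, IGF2, SNAI2, PRRX1, PTH1R, ADAMTS1, TWIST1, RUNX1T1 and GPX3.

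The ratio of the soma mean to the cjPGCLC mean was high for EN1 (4.93), SNED1 (2.76), HAND2 (2.63) and INSRR (2.29), and lowest for RSPO3 (0.314), MYH6 (0.538), UNC45B (0.675), VTCN1 (0.682), SMYD1 (0.724) and GATA4 (0.753). It was within a factor of 2 for 44 of the 57, a count for which no share of all genes is given. Of the 13 transcription factors, 11 had the higher mean in the soma, as had 8 of the 9 matrix genes, but 2 of the 5 BMP genes and 3 of the 7 heart and muscle genes. These roles were assigned after the values were seen, so the counts are description only. The summed counts of the fibroblast markers THY1, COL1A1, DCN and LUM were 3562 to 7824 in the cjPGCLCs and 13184 to 16391 in the soma. No marker gene of the fractions or of fibroblasts was at 0 in every day 4 library. DCN (2238 to 4426 against 7431 to 10820) and LUM (433 to 781 against 857 to 1161) were higher in every soma library. THY1 (424 to 933 against 583 to 1069) and COL1A1 (438 to 2318 against 2285 to 5502) overlapped. The earlier cjPSCM libraries summed to 3110 to 14927, with THY1 at a mean of 9978 in cjiPSCs_cjPSCM. The paper counts THY1 among primed pluripotency genes. The part of these markers in the lean was not tested.

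**Figure D3:**
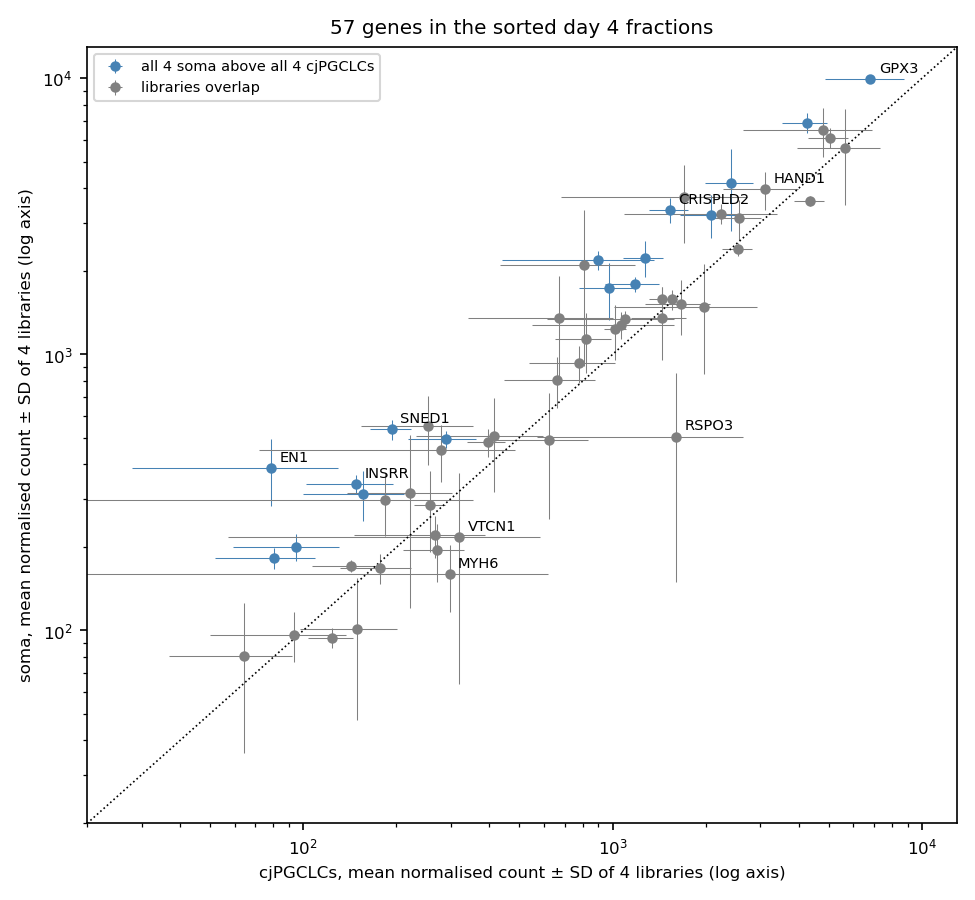
Mean normalised count of each of the 57 genes in the 4 cjPGCLC libraries (x axis) and the 4 soma libraries (y axis), both log axes, with bars of 1 SD; the SD of MYH6 exceeds its cjPGCLC mean, so its lower bar runs off the axis. Blue marks the 16 genes whose soma libraries all lay above the cjPGCLC libraries; most points lie above the dotted line of equal means, and RSPO3 lies furthest below it.

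Cells in TESR, whose values the rule did not use, show whether these genes were also low in the same line kept in another medium. For 34 of the 57 (59.6%) the lowest day 4 value was also at least 6 times the highest TESR value plus 1. This held for 0.602% of genes with a day 4 mean of at least 50, the 57 included. The rule had already fixed a high day 4 level for the 57, so the shares are given side by side only. The 34 genes included 11 of the 13 transcription factors, with ISL1 and SNAI2 as the exceptions. Also included were 4 of the 6 receptors, among them PDGFRA at 63.6 to 146, UNC5C at 43.0 to 92.0 and INSRR at 0 to 1.65. PRRX1 was at 11.0 to 23.4 in the 6 TESR libraries and GATA4 at 1.65 to 7.43. Of the matrix genes, 3 of 9 met the ratio, and of the secreted signals 0 of 3.

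In 4 genes the highest TESR value was above the lowest day 4 value. IGF2 was at 1666 and 2140 in cjiPSCs_TESR, 547 and 545 in TESR_pre-ME+ActA and 524 and 508 in TESR_pre-ME-ActA, so the cjiPSCs in TESR lay within the soma's range while cjiPSCs in cjPSCM were at 70.6 and 38.5. PCOLCE was at 263 and 310 in cjiPSCs_TESR, CAMK2A, a calcium-dependent kinase, at 61.1 and 73.0, and TRPM3, a cation channel, at 404 and 408 in TESR_pre-ME-ActA. COL6A3 reached 1481 and ADAMTS1 998 in TESR, and ISL1 was at 918 and 934 in TESR_pre-ME+ActA.

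**Figure D4:**
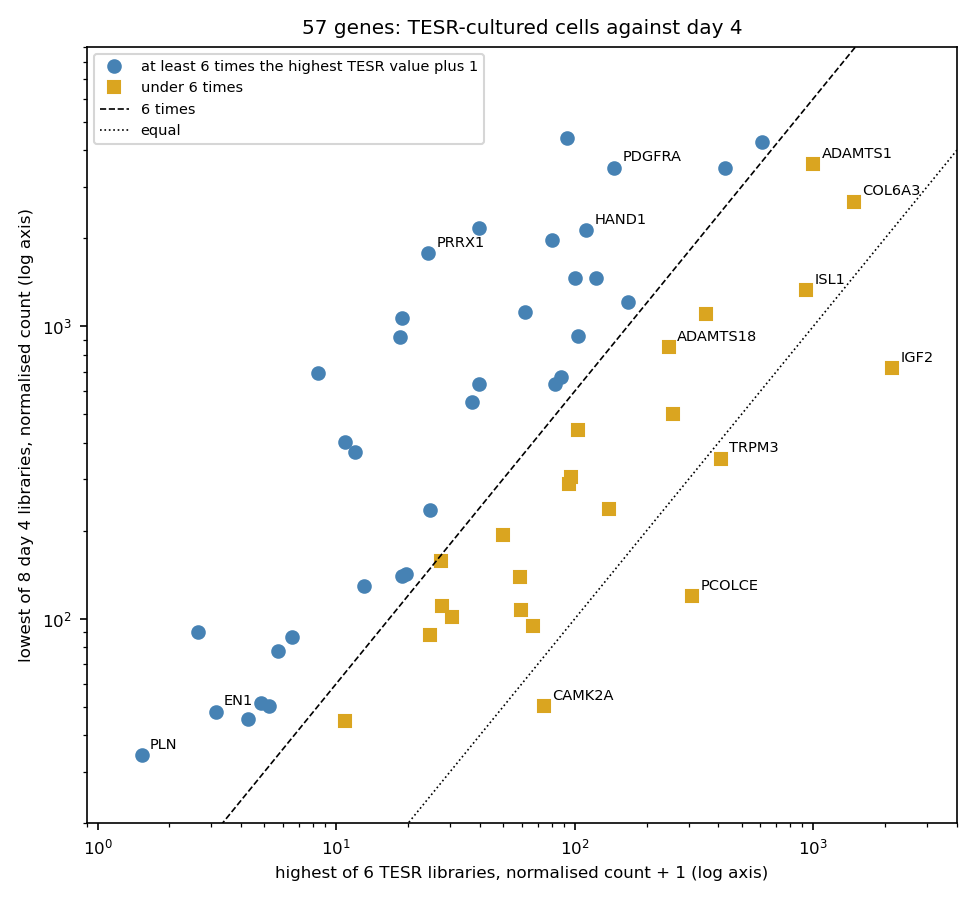
Lowest value of the 8 day 4 libraries (y axis) against the highest of the 6 TESR libraries plus 1 (x axis) for the 57 genes, both log axes. Blue circles are the 34 genes above the dashed line of a ratio of 6, yellow squares the other 23, and the 4 squares below the dotted line of equality are IGF2, PCOLCE, TRPM3 and CAMK2A.

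Pre-induction with ActA, compared with cjiPSCs in the same medium, asks whether the genes begin to move within 24 h. In TESR 17 of the 57 rose (29.8%, beside 17.3% of all 15797 genes tested) and 16 fell (28.1%, beside 17.1%), by edgeR's quasi-likelihood test with Benjamini-Hochberg adjustment at 0.05. The median log2 change was 0.39 over the 57 and -0.02 over all genes. HAND1 was at 9.92 and 10.4 in cjiPSCs_TESR and 111 and 55.2 in TESR_pre-ME+ActA, and rose by 3.03 ± 0.38 on the log2 scale (SE, n = 2 and 2; edgeR adjusted p = 2.2e-05). ADAMTS18 rose by 3.61 ± 0.30, from 16.0 and 20.8 to 246 and 183, and TWIST1 by 2.24 ± 0.39, from 12.7 and 28.3 to 67.3 and 99.3. ISL1 rose by 1.27 ± 0.17, SMAD6 by 1.22 ± 0.25, TBX2 by 1.49 ± 0.35, MSX2 by 1.45 ± 0.50 and TAC3 by 1.45 ± 0.37. Of the transcription factors 5 rose and 0 fell (edgeR). At 111 and 55.2, HAND1 was still far under its lowest day 4 value of 2135.

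The falls in the same comparison were led by CAMK2A at -5.26 ± 0.52, from 61.1 and 73.0 to 2.19 and 1.06, and by CPNE5, a calcium-dependent membrane-binding protein, at -3.89 ± 0.38, from 65.6 and 47.6 to 4.93 and 2.65. CRISPLD2 was at 166 and 136 and then at 21.9 and 27.1 (-2.63 ± 0.22). MYH6 was at 12.1 and 26.8 and then at 0 and 2.12 (-3.87 ± 1.24), a change that rests on few reads. SMYD1 changed by -2.08 ± 0.52 and PRPH by -2.07 ± 0.47. Of the 7 heart and muscle genes 4 fell and 1, NEBL, rose. Without cjiPSCs_TESR replicate 1, 21 of the 57 were called in place of 33, and 16 of the 33 calls held in each fit that left out 1 library, HAND1, ADAMTS18, TWIST1, ISL1, SMAD6, CAMK2A, CPNE5 and CRISPLD2 among them.

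Without ActA in TESR, 5 genes rose (8.77%, beside 17.4% of all genes) and 18 fell (31.6%, beside 19.2%; edgeR), with a median of -0.43 beside -0.03 over all genes. HAND1 was at 14.8 and 10.3 and was not called. TWIST1 rose by 1.81 ± 0.40, TRPM3 by 1.94 ± 0.24, BMP5 by 1.91 ± 0.44, MSX2 by 1.47 ± 0.50 and TSPAN11, a tetraspanin, by 1.41 ± 0.28. ISL1 went from 379 and 395 to 207 and 223 (-0.83 ± 0.17), the opposite direction to that with ActA; the 2 comparisons share the cjiPSCs. VWC2 went from 11.6 and 23.8 to 1.65 and 0.936 (-3.55 ± 0.60) and CRISPLD2 from 166 and 136 to 20.3 and 11.7 (-3.26 ± 0.23). CAMK2A (-3.05 ± 0.41), CPNE5 (-2.29 ± 0.32) and MYH6 (-3.42 ± 1.15) were lower here too. Of the 23 calls 13 held in each fit without 1 library. TWIST1 was not called without cjiPSCs_TESR replicate 1, and MSX2 and MYH6 were not called in 3 of the 4 fits.

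In cjPSCM both sides of the comparison are libraries whose highest value the rule used. A gene that rose far within 24 h could therefore miss the rule. For both cjPSCM comparisons the shares are thus given side by side only. With ActA 6 rose (10.5%, beside 7.42% of all genes) and 4 fell (7.02%, beside 10.3%; edgeR), with a median of -0.0030 beside -0.00039 over all genes. TSPAN11 was at 5.65 and 7.41 in cjiPSCs_cjPSCM and 25 and 22.5 after 24 h and rose by 1.91 ± 0.40, TWIST1 rose by 1.47 ± 0.40, TBX2 by 1.40 ± 0.35 and ADAMTS18 by 0.92 ± 0.31. PRPH (-1.81 ± 0.52), IGF2 (-1.70 ± 0.42), SNAI2 (-0.70 ± 0.22) and PCDH15, a protocadherin (-0.61 ± 0.19), were lower. These calls were fragile: without cjPSCM_pre-ME+ActA replicate 1 the count was 1, without cjiPSCs_cjPSCM replicate 1 it was 2, without cjPSCM_pre-ME+ActA replicate 2 it was 5, and 0 of the 10 calls held in all 4 fits. A fit of these 4 libraries alone called 0 of the 57.

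Without ActA in cjPSCM, 4 genes rose (7.02%, beside 17.9% of all genes) and 10 fell (17.5%, beside 20.1%; edgeR), with a median of -0.24 beside 0.03 over all genes. TRPM3 was at 3.77 and 17.8 and then at 54.2 and 48.5 and rose by 2.47 ± 0.39. TSPAN11 rose by 2.01 ± 0.38, NEBL by 1.88 ± 0.51 and PHYHIPL by 1.33 ± 0.24. HAND2 (-2.16 ± 0.83), IGF2 (-2.15 ± 0.41), SAMD11 (-1.81 ± 0.43), PRPH (-1.79 ± 0.49), ADAMTS18 (-1.61 ± 0.38) and ISL1 (-1.21 ± 0.21) fell. HAND2, at 34.9 and 25.2 and then at 6.48 and 6.93, was called in 0 of the 4 fits that left out 1 library. Without cjPSCM_pre-ME-ActA replicate 1, 8 genes were called in place of 14, and 6 of the calls held in each of the 4 fits, those of TRPM3, TSPAN11, PHYHIPL and ISL1 among them. A fit of these 4 libraries alone called 0.

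Across the 4 comparisons of 24 h, 17 of the 57 genes were called in none (beside 37.5% of all genes), 13 rose in at least 1 and fell in none (beside 29.3%), 21 fell in at least 1 and rose in none (beside 30.0%), and 6 did both (beside 3.18%; edgeR). TSPAN11 was the 1 gene that rose in all 4, beside 2.29% of all genes. IGF2 and PRPH were the 2 that fell in all 4, beside 3.82%. Neither count was above the share of all genes. Each PRPH call was lost in at least 1 fit that left out 1 library, as were the IGF2 calls in cjPSCM and the TSPAN11 calls with ActA. Among the 17 without a call were PRRX1, PDGFRA, TBX20 and GATA4. Comparisons within a medium share their cjiPSC libraries, so a call in both is not independent. The chi-square per degree of freedom between replicates was 39.5 in cjiPSCs_cjPSCM and 37.2 in cjiPSCs_TESR, against 3.08 to 14.3 in the other conditions. All conditions shared 1 estimate of the spread, so SEs and p-values of the 24 h comparisons may be too small. Reads outside genes were 10.6% and 13.3% in cjiPSCs_TESR and 19.3% to 20.6% in the TESR pre-ME. This difference cannot be told apart from the 24 h.

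ActA in the pre-induction was then compared on day 4, within each fraction. In the cjPGCLCs 6 of the 57 were higher after pre-induction with ActA (10.5%, beside 1.37% of all genes) and 2 lower (3.51%, beside 1.16%; edgeR), with a median log2 difference of 0.22 beside -0.0069 over all genes. The rule used the levels of these libraries, though not the contrast of the ActA arms, so the 57 differ from all genes in how they were chosen and the shares are given side by side only. IGSF10, an immunoglobulin superfamily protein, was at 425 and 185 with ActA and 72.9 and 50.4 without, a log2 difference of 2.28 ± 0.38 (edgeR adjusted p = 0.0039). PDK4 was at 539 and 344 with ActA and 143 and 86.7 without (1.91 ± 0.32), POSTN at 2929 and 2084 and at 1151 and 634 (1.48 ± 0.30), and TSPAN11 at 1652 and 1341 and at 720 and 550 (1.23 ± 0.17; edgeR adjusted p = 0.0011). TBX20 (1.15 ± 0.27) and PHYHIPL (1.01 ± 0.17) were also higher. In these 6 genes both replicates with ActA were above both without.

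VTCN1 was lower with ActA, at 80.3 and 132 against 642 and 426 (-2.36 ± 0.47; edgeR adjusted p = 0.013), as was NEBL, at 139 and 188 against 377 and 364 (-1.19 ± 0.26). RSPO3, at 1296 and 475 against 2956 and 1689, was not called, nor was HAND1. The calls rested on single libraries in part: 1 gene, TSPAN11, was called without cjPGCLCs_pre-ME+ActA replicate 1 (1.07), 2 without cjPGCLCs_pre-ME-ActA replicate 2, 5 without cjPGCLCs_pre-ME-ActA replicate 1 and 12 without cjPGCLCs_pre-ME+ActA replicate 2. The summed fibroblast markers also varied within the cjPGCLCs, from 3562 to 7824, and COL1A1 was at a mean of 1975 with ActA and 449 without. Its part in the higher POSTN was not tested.

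In the soma 0 of the 57 were called for ActA by edgeR, beside 0.019% of all genes higher and 0.00633% lower, with 13 at an unadjusted p under 0.05 and 0 called by DESeq2. GATA5 was at 200 and 130 with ActA and 567 and 362 without (-1.49 ± 0.38), HAND2 at 1732 and 662 against 3510 and 2567 (-1.34 ± 0.39) and GATA4 at 1294 and 690 against 2161 and 1813. In these 3 genes both replicates without ActA were the higher ones. A fit of the 4 soma libraries alone called 8, among them GATA4, GATA5, HAND2, PDGFRA and TNNI1.

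The test of the difference between the fractions in the effect of ActA called 0 of the 57 by edgeR, beside 0.0253% of all genes with the larger effect in cjPGCLCs and 0.038% with the smaller, with 19 at an unadjusted p under 0.05. TSPAN11 came nearest, with a difference of 1.30 ± 0.24 (edgeR adjusted p = 0.057), followed by POSTN at 2.10 ± 0.41 (0.069) and PHYHIPL at 1.13 ± 0.24 (0.078). DESeq2 called 4, TSPAN11, PHYHIPL, IGSF10 and TNNI1. With the replicate number as a block, edgeR called 3, HAND2, POSTN and TSPAN11. The labels do not say whether same-numbered cjPGCLC and soma libraries were sorted from the same embryoid bodies.

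**Figure D5:**
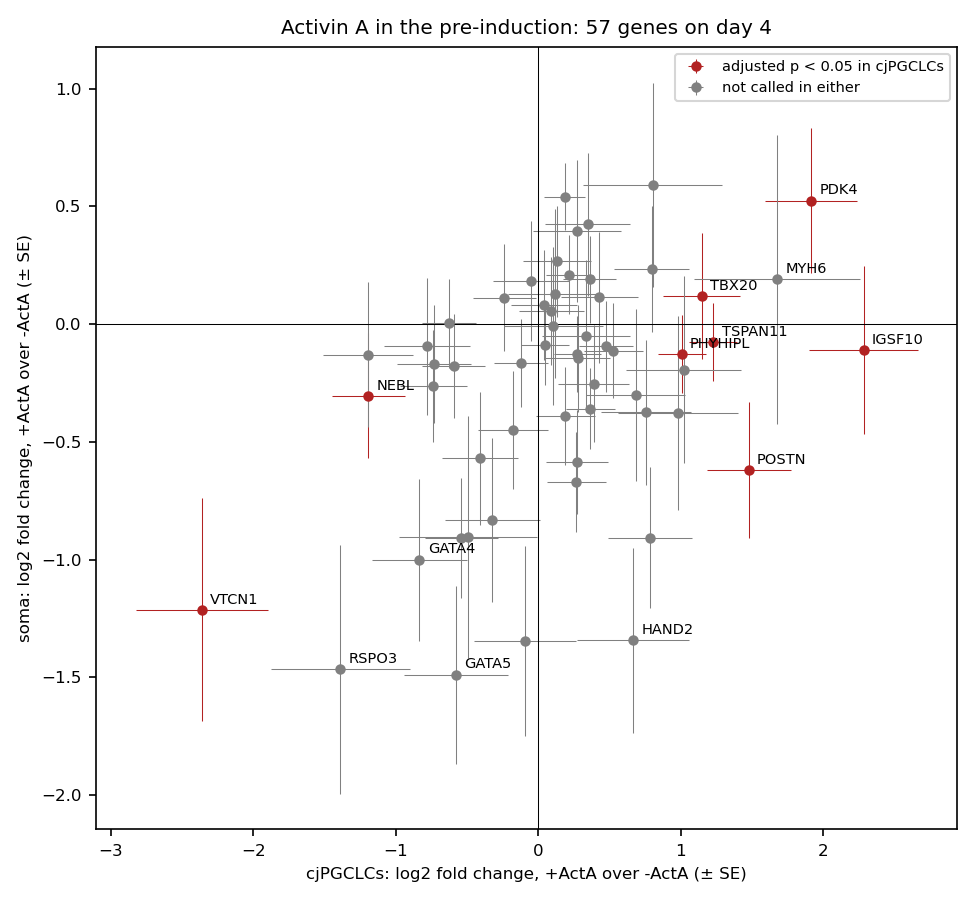
Log2 fold change of +ActA over -ActA pre-induction on day 4 for the 57 genes in cjPGCLCs (x axis) and soma (y axis), with bars of 1 SE. Red points are the 8 genes called in the cjPGCLCs, 6 to the right and 2 to the left of 0; no gene was called in the soma, where GATA5 and RSPO3 lie lowest.

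The pathways the 57 genes belong to were described with 18 gene lists, of which 5 held at least 1 of them and which took in 20 of the 57. The lists were chosen with earlier results of these data known, so their counts are description only. Over all genes tested, 57 of 15797 were members. The difference between day 4 and the earlier cjPSCM libraries was tested for the other genes of the lists. Day 4 was here the mean over its conditions, with cjPGCLCs and soma weighted alike. Over all genes tested, 34.2% rose and 33.2% fell on day 4 (edgeR), with a median log2 change of 0.02, so a call by itself is common. Of the 38 genes of the BMP-SMAD response list, 9 were members, among them BMP5, DLX6, HAND1, MSX2, SMAD6, SMAD9, TBX2 and TBX20. Of the other 27 tested, 20 rose, 2 fell and 5 were not called, with a median log2 change of 1.19.

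The risers of that list included DLX5 (4.72 ± 0.23), MSX1 (4.49 ± 0.16), BMPER (4.34 ± 0.20) and NOG (3.66 ± 0.17), the last 2 being secreted regulators of BMP. MSX1, unlike its relative MSX2, was already at 632 and 395 in cjPSCM_pre-ME+ActA and 399 and 392 in cjPSCM_pre-ME-ActA, after 18.8 and 11.9 in cjiPSCs_cjPSCM. SMAD7, an inhibitory SMAD like SMAD6 and chosen after its values were seen, rose by 2.76 ± 0.12, from 120 to 847 before to 1798 to 2214 on day 4. PMEPA1 (-1.41 ± 0.20) and BMP4 itself (-1.37 ± 0.19) fell, BMP4 from 448 to 1029 before to 191 to 440 on day 4.

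The list of extraembryonic and lateral mesoderm and mesenchyme held 10 members (COL6A3, GATA4, HAND1, HAND2, PDGFRA, POSTN, PRRX1, SNAI2, TBX20 and TWIST1) among 33 genes tested. Of the other 23, 15 rose, 3 fell and 5 were not called, with a median log2 change of 1.47. COL3A1 rose by 4.87 ± 0.32, DCN by 3.21 ± 0.16 and NR2F1 by 2.64 ± 0.17. BMP4, TAGLN (-0.70 ± 0.14) and VIM (-0.60 ± 0.12) fell. TWIST2 and FOXF1, picked out after their values were seen, were too low to be tested, at 0 to 1.18 and 0 to 4.71 over the earlier cjPSCM and day 4 libraries.

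The amnion and surface ectoderm list held 3 members (HAND1, ISL1 and VTCN1). Of the other 21 tested, 14 rose and 4 fell, among them GABRP (5.65 ± 0.57), ITGB6 (3.69 ± 0.65), HEY1 (3.58 ± 0.09) and TFAP2A (3.24 ± 0.25), though GABRP stayed at 10.4 to 69.1 on day 4. The endoderm and yolk sac list held GATA4, and of the other 15 tested 6 rose and 2 fell. HNF4A rose (3.07 ± 0.68), and was at 131 to 835 in the cjPGCLCs against 1.55 to 9.22 in the soma. The list of metallothioneins and oxidative stress held GPX3, and of its other 8 genes tested 3 rose and 4 fell.

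The other 13 lists held 0 of the 57 genes. They covered trophoblast, blood vessels and blood, neural tissue and neural crest, germ cell specification, retinoic acid, secreted modulators of WNT, NODAL and FGF, cell adhesion and basement membrane, interferon, p53, immediate early and heat shock genes, hypoxia and glycolysis, sterols and LIF and EGF signalling. Over all 18 lists, 131 of the 341 other genes tested rose and 130 fell. In the germ cell list 4 of 21 rose and 14 fell over both fractions together, with a median of -1.41. The fractions differed there: SOX17 had condition means of 973 and 2124 in the cjPGCLCs, 83.0 and 181 in the soma and 203 to 511 before. Of the fraction markers in that list, CXCR4, NANOS3 and KIT also had cjPGCLC means above every earlier cjPSCM mean. TFAP2C, PRDM1, DPPA3 and ITGA6 did not. In the blood vessel and blood list 2 of 20 rose and 14 fell, with a median of -0.79. In the adhesion and basement membrane list 23 of 42 rose and 13 fell, with a median of 0.32. In the list of immediate early and heat shock genes, which can respond to dissociation, 7 of 29 rose and 13 fell on day 4.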

How the data were processed

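Per the authors, reads were checked with FastQC 0.11.8, aligned to calJac4 with STAR 2.7.0a and counted per gene with HTSeq 0.11, and the deposited counts are raw. The deposited normalised counts, a signal on a linear scale, are those counts divided by DESeq2 size factors. They carry no correction for gene length. All 57 genes and the gene lists were chosen with earlier results of these data known. Genes were named by fixed ranks of level, ratio and fold change, and further ones to describe each role, after their values were seen. Some genes are not reported here.

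Tests ran on the raw counts of the 20 libraries with edgeR 4.0.16 (TMM, filterByExpr, quasi-likelihood F-test, 1 coefficient per condition, 10 residual degrees of freedom) and Benjamini-Hochberg adjustment over 15797 genes, with a call at an adjusted p under 0.05. A fit on simulated counts was checked first. Errors are SE unless named SD. The reads outside genes, 10.6% to 23.2% per library, were left out. The alternatives were DESeq2 1.42.0, other scaling, no filter, a replicate block, the compared libraries alone, leaving out each library, and other thresholds of the rule.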

Additional observations from a re-analysis of the deposited data

Results flagged for a closer look

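The effect of 24 h with CHIR and ActA on PCDH15 had opposite signs in the 2 media, with each effect called by edgeR. The difference between the media was not tested. PCDH15, a protocadherin, was at 6.61 and 5.96 in cjiPSCs_TESR and 17.5 and 11.1 in TESR_pre-ME+ActA, a log2 change of 1.15, and at 78.2 and 78.6 in cjiPSCs_cjPSCM and 46.7 and 56.2 in cjPSCM_pre-ME+ActA, a log2 change of -0.61. The first call was lost in 2 of the 4 fits that left out 1 library (without cjiPSCs_TESR replicate 1 and without TESR_pre-ME+ActA replicate 1) and the second in 3 of 4 (without cjiPSCs_cjPSCM replicate 1 and without either cjPSCM_pre-ME+ActA replicate).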

How the results depend on the processing

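The number of genes that met the rule was 57, and 91 with a threshold of 4, 34 with a threshold of 10 and 55 to 63 with other scalings or mean thresholds. Without each library in turn it was 57 to 64, and all 57 remained. Leaving out a library can only loosen the ratio of a lowest to a highest value. That the 57 remained is therefore no test of the rule. The median over the 57 genes of the difference in mean log2 level between day 4 and the earlier libraries was 5.57 with a pseudocount of 1, and 4.37 with a pseudocount of 10. The number that met the ratio against TESR, 34, ranged from 34 to 36 without single libraries, and it could not fall for the same reason.

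For ActA in cjPGCLCs, 8 genes were called, 22 with no filter on low counts, 14 from the compared libraries alone and 1 to 12 without single libraries. For ActA in soma the 0 calls became 10 with no filter and 8 from the compared libraries alone, and 0 to 0 without single libraries. For the difference between the fractions the 0 calls became 15 with no filter, 4 from the compared libraries alone, 4 with DESeq2 and 0 to 3 without single libraries. The cause was not tested. Without single libraries pre-ME+ActA against cjiPSCs gave 21 to 31 calls in TESR and 1 to 12 in cjPSCM, and pre-ME-ActA 16 to 19 in TESR and 8 to 13 in cjPSCM. From the compared libraries alone, with 2 residual degrees of freedom, both cjPSCM comparisons gave 0.

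The labels do not say that a replicate number marks a shared culture or batch. The main fit therefore did not take the numbers as pairs. The correlations of same-numbered deviations from the group means were lowest at -0.204 (cjiPSCs_cjPSCM and cjPSCM_pre-ME-ActA). They were highest between ActA arms: 0.258 for the cjPGCLC conditions and 0.253 and 0.251 for the pre-ME conditions in cjPSCM and in TESR. Between the soma arms the correlation was 0.0998. Whether same-numbered arms shared a batch was not tested. With the replicate number as a block, the difference between the fractions gave 3 calls (HAND2, POSTN and TSPAN11), and each of the 88 calls named for single genes was kept. Crossing the numbers in the cjPSCM comparisons, an alternative chosen after seeing the data, kept all 24 calls. Of the 88 calls, 2 were lost with DESeq2, 1 with its size factors and 1 without the filter. From the compared libraries alone 86 of them were tested and 32 of these were lost. No sign was reversed among the calls tested under these alternatives. Promoter motifs were not run.

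A depth of 4784964 reads on genes in the shallowest soma library makes values under 6.92 normalised counts there rest on fewer than 3 reads. With 2 libraries per condition, a missing call does not show that a gene did not change.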
